A study of Homo sapiens with 52 samples.

Results

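The 54 genes described here encode the machinery of mitosis and of entry into it from G2. They were chosen by name, as GeneName in the deposited tables, and all 54 were among the 27043 genes listed in each of 52 RNA-seq samples of PAX3-FOXO1 fusion-positive rhabdomyosarcoma (FP-RMS) cell lines. FP-RMS is a childhood muscle-lineage tumour, and the 52 samples came from cells exposed to small molecules directed at chromatin or signalling proteins, or to their solvent DMSO. In the screen, 20 compounds were applied for 6 h, each at a high dose (10 µM, or 5 µM for Cpd50, GSKJ4 and LAQ824) and at a low dose 10 times smaller (1 or 0.5 µM), with 1 sample per dose, beside 2 samples of 0.2% DMSO for the high dose and 2 of 0.1% DMSO for the low dose. The labels give the targets: HDACs for LAQ824, HDAC4/5 for MC1568, HDAC1/2 for Merck60, HDAC8 for OJI-1, HDAC6 for WT161, bromodomains for Bromosporin and the CREBBP/EP300 bromodomain for SGC-CBP30, which together make up 7 acetylation-axis compounds. The 11 methylation-axis compounds were Cpd50 (Pan Jumonji demethylases), GSKJ4 (JMJD3/UTX), GSKLSD1, LSD-519 and LSD-690 (LSD1), EZ-005 (EZH2), UNC1999 (EZH1), UNC0638 (KMT1C), PFI-2 (SETD7), SGC0946 (DOT1L) and UNC-1215 (L3MBTL3), while PFI-3 (SMARCA4) and Trametinib (MEK1/2) belonged to neither. In separate experiments 1 µM N1302, an HDAC inhibitor, was applied for 6 h and 1 µM Entinostat, an inhibitor of HDAC1/2/3, for 1, 6 and 24 h, each with 1 sample and 1 sample of 0.1% DMSO. The screen samples carry RH41 in their titles and RH4 as their cell line, so screen samples were not set against samples of the other experiments. No label states that samples came from separate cultures, so p-values measure only the spread between these samples.

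Mitosis begins when CDK1, bound to a B-type cyclin, is switched on by CDC25 phosphatases. Aurora and Polo-like kinases then build the spindle, the kinetochore ties chromosomes to it, and the spindle checkpoint holds the anaphase-promoting complex (APC/C) until all are attached. The APC/C with CDC20 marks securin and cyclin B for destruction, and the central spindle guides the division of the cell. The genes for these proteins peak in G2 and M, largely through the DREAM and MuvB complexes, which bind a short element called CHR, together with NF-Y at CCAAT boxes and with FOXM1. In bulk RNA, fewer cells in G2 or M and less RNA per cell cannot be told apart.

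Promoter sequences of 6 members are shown because these genes lay at the ends of the range of responses below: PLK1, MKI67 and CENPA among the members with the largest decreases, and CDKN3, PTTG1 and UBE2S among those with increases under HDAC inhibitors. They are from RefSeq (GRCh38.p14), given 5′ to 3′ on the gene's strand over the 250 bases before the start site, and the capitals mark CHR letters (TTTGAA or TTCGAA) and CCAAT, each searched on both strands. PLK1 lies at chr16:23678639-23678888 on the plus strand, MKI67 at chr10:128126424-128126673 on the minus strand, CENPA at chr2:26785806-26786055 on the plus strand, CDKN3 at chr14:54396757-54397006 on the plus strand, PTTG1 at chr5:160421605-160421854 on the plus strand and UBE2S at chr19:55407789-55408038 on the minus strand.
PLK1: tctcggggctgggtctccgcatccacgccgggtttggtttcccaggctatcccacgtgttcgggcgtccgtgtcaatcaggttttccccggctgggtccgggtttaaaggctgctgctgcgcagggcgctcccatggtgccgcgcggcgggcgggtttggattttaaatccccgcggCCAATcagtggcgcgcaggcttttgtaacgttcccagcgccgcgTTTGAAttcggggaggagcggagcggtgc
MKI67: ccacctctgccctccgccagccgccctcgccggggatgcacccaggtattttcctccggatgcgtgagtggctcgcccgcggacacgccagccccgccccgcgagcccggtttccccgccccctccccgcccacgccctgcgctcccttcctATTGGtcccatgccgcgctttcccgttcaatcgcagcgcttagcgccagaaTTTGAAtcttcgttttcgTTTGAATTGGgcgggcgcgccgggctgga
CENPA: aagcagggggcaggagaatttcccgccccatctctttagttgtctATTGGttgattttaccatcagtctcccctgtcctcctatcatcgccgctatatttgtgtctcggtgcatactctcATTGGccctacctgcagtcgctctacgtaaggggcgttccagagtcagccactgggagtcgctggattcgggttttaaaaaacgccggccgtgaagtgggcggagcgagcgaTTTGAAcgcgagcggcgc
CDKN3: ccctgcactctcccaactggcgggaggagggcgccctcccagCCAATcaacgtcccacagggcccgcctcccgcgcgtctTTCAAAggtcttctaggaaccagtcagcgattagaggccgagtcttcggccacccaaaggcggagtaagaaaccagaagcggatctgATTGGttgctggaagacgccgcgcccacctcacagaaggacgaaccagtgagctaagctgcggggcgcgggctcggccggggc
PTTG1: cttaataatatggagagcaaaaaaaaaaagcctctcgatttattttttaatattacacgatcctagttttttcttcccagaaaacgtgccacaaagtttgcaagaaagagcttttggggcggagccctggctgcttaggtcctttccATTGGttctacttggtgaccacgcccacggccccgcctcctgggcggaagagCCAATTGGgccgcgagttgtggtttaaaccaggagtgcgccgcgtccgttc
UBE2S: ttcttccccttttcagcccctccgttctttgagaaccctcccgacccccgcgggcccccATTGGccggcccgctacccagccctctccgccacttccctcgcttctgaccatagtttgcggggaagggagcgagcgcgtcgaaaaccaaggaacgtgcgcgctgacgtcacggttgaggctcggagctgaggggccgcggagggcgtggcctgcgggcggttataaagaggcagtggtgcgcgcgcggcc
In MKI67 a TTTGAA match runs into ATTGG, the reverse complement of CCAAT, and in PTTG1 CCAAT overlaps ATTGG. Of the 54 members, 46 had an entry in the promoter table. Over the full window of 300 bases, including 50 after the start site, 34 of these 46 (73.9%) held TTTGAA or TTCGAA, against 16.4% of all 35116 promoters. CCAAT was found in 36 of 46 (78.3%), against 34.6% of all promoters, and both motifs together in 29 of 46 (63%) against 6.38%. PTTG1 and UBE2S held CCAAT without TTTGAA or TTCGAA, and CDKN3 held both motifs. CCNA2 and CCNB1, among the members lower under LAQ824 below, also held CCAAT without TTTGAA or TTCGAA. No other spelling of the CHR was searched, so a missing match does not show that a CHR is absent. A match describes letters only and not binding.

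The depth of a sample, recovered from the steps between TPM values, lay between 5737939 and 41415071 reads (median 15055060). One flow cell, as the file names give it, held 28 samples of 14 compounds and no DMSO, at a median of 10571890 reads. It held Bromosporin, WT161 and UNC0638. The 4 screen DMSO samples ran on 2 other flow cells, 1 with Cpd50 and 1 with LAQ824. Of 12 identity genes of FP-RMS, 10 had a mean of at least 1 TPM in the screen DMSO samples. CDH3 (0.28 to 0.389 TPM) and MYF5 (0 to 0.321 TPM) did not. The 12 genes summed to between 1115 and 3960 TPM per sample. In contrast, 9 immune, endothelial and epithelial markers summed to at most 3.37 TPM in any sample, and PTPRC and KRT5 were listed at 0 in all 4 screen DMSO samples. Of the members, 53 had at least 1 TPM in every sample and passed the filter on low values (a TPM of 1 or more in at least 2 samples). KIFC1, a minus-end-directed spindle kinesin, was listed at 0 in all but 5 samples, which had 1 read each (at most 0.136 TPM), and was not tested. Whether these values are a failed estimate is not known. Levels below are TPM, a measure of transcript share per gene length and library, and differences are on the log2(TPM + 1) scale.

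The members were abundant in solvent. Their median over the screen DMSO samples was 131 TPM, against 16.4 TPM over all 16359 genes tested, and they ranged from 16.5 TPM for CENPI, a centromere protein, to 1046 TPM for UBE2C, the ubiquitin-conjugating enzyme that starts chains for the APC/C. The most abundant member of each role was CCNB1 (cyclin B1, 391 ± 5.72 TPM, SD, n = 2 DMSO concentrations), PLK1 (219 ± 5.58), BIRC5 (survivin of the chromosomal passenger complex, 268 ± 2.46), BUB3 (a spindle checkpoint protein, 222 ± 5.35), NDC80 (the microtubule-binding kinetochore subunit, 196 ± 4.12), TPX2 (a spindle assembly factor, 355 ± 5.56), PRC1 (which bundles central spindle microtubules, 212 ± 2.35), UBE2C (1046 ± 4.41) and TOP2A (topoisomerase II alpha, 637 ± 2.04). The 4 screen DMSO samples lay close together, with set means between −0.028 and 0.019 of their common mean. Between 0.2% and 0.1% DMSO, limma called 0 members and 0% of all genes at an adjusted p below 0.05. An unadjusted p below 0.05 was found for 3 of 53 members (SPC25, NEK2 and CENPA) and 1548 of all 16359 genes. On simulated data this fit called 0 of 200 genes changed 2-fold, so 0 calls does not show that the concentrations were alike. In 0.2% DMSO (replicates 1 and 2) and then 0.1% DMSO (replicates 1 and 2), PLK1 was at 220, 211, 223 and 224 TPM, FOXM1 at 145, 145, 143 and 140 TPM and MKI67 at 168, 167, 163 and 164 TPM. In the same order CDC20 was at 434, 425, 439 and 448 TPM, CCNB1 at 383, 391, 395 and 395 TPM and BUB3 at 224, 228, 216 and 221 TPM. These 6 genes differed little between controls. PTTG1 was at 208, 205, 187 and 200 TPM, CDKN3 at 35.7, 38.6, 36.8 and 36.5 TPM and NEK2 at 54.5, 56.9, 51.7 and 51.5 TPM. UBE2S, at 386, 334, 383 and 345 TPM, was higher in both samples numbered 1 than in both numbered 2, a number that goes with the flow cell.

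The set mean, the average log2 difference of the 53 members from DMSO of the same dose class, was lowest under Cpd50. It was −0.60 at 5 µM and −0.52 at 0.5 µM, with 52 of 53 members below DMSO at each dose, while the median over all 16359 genes was −0.06 and −0.04. LAQ824 gave −0.33 at 5 µM and −0.28 at 0.5 µM, with all-gene medians of 0.03 and 0.05. UNC0638, Bromosporin and WT161 had low set means at the high dose: −0.41, −0.33 and −0.32 at 10 µM, against −0.02, 0.05 and 0.10 at 1 µM. The medians over all genes were −0.17, −0.19 and 0.02 at 10 µM and −0.08, −0.03 and 0.01 at 1 µM. For the other 15 compounds the set mean lay between −0.15 (10 µM EZ-005) and 0.24 (1 µM GSKLSD1). The highest values were those of GSKLSD1 (0.10 and 0.24 at high and low dose), LSD-690 (0.16 and 0.11) and PFI-2 (0.16 and 0.08). GSKJ4, the other Jumonji demethylase inhibitor, sat at −0.04 and −0.01 at the same 5 and 0.5 µM, and the difference between it and Cpd50 was not tested. Read against samples of the same flow cell, the set means were −0.59 and −0.49 for Cpd50 and −0.34 and −0.30 for LAQ824. With the other compounds of their flow cell as reference they were −0.38 and −0.09 for UNC0638, −0.30 and −0.01 for Bromosporin and −0.29 and 0.04 for WT161.

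**Figure D1:**
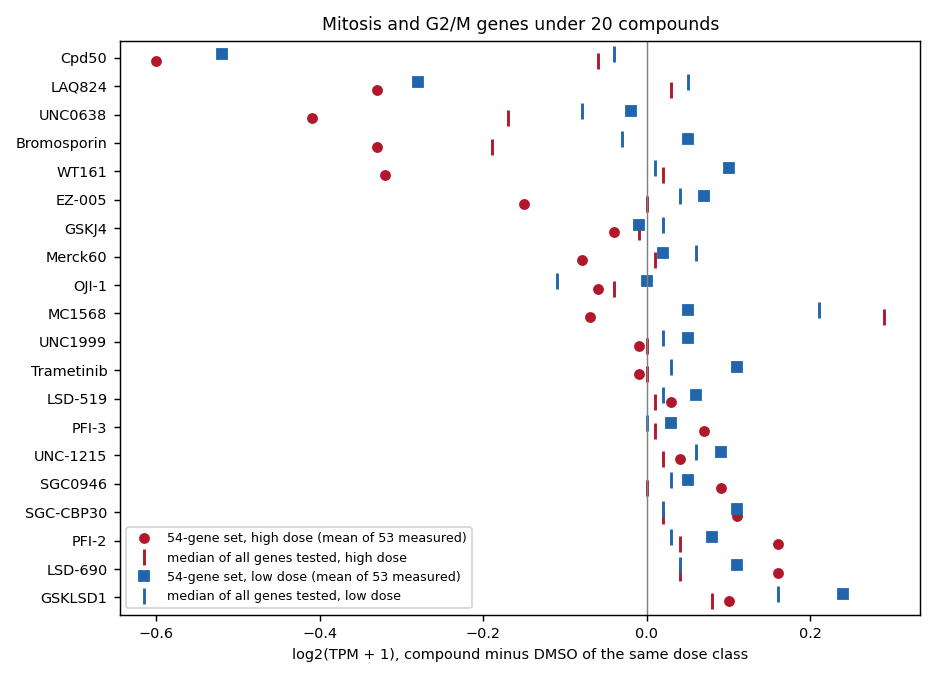
Mean log2 difference from DMSO of the 53 measured members for each of 20 compounds, at the high dose (circles) and the low dose (squares), with the median of all 16359 genes as a vertical tick. Cpd50 lies apart from its all-gene median at both doses (−0.60 and −0.52 against −0.06 and −0.04), as does LAQ824 (−0.33 and −0.28 against 0.03 and 0.05). UNC0638, Bromosporin and WT161 lie low at the high dose only, where their all-gene medians were −0.17, −0.19 and 0.02.

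Over 20 compounds and 53 members, the fit of both doses against DMSO made 72 calls of a lower level and 24 of a higher one among 1060 member and compound pairs. In all, 40 members were called lower under at least 1 compound, 13 were called higher, 8 were both, and 8 were never called. A share of all genes pooled over compounds is not given here, so these totals are counts only. Shares of all genes for each compound follow below. The calls came from 7 compounds: LAQ824 (23 members lower, 7 higher), Cpd50 (22 and 0), Bromosporin (11 and 7), WT161 (9 and 5), UNC0638 (6 and 1), MC1568 (1 and 2) and GSKLSD1 (0 and 2). All comparisons of the screen share the same DMSO samples, so they are not independent of each other. UBE2C was called lower under the most compounds, Bromosporin, Cpd50, LAQ824, MC1568 and WT161, followed by INCENP, the scaffold of the chromosomal passenger complex, under Cpd50, LAQ824, UNC0638 and WT161.

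Cpd50 lowered genes of nearly every mitotic role. The 22 members called lower were 41.5% of those tested, whereas 2.27% of all genes were called lower. Shares of all genes, here and elsewhere, were not matched to the members for level (medians of 16.4 and 131 TPM in screen DMSO). No member was called higher, where 3.43% of all genes were. In 51 of 53 members both Cpd50 samples lay below all 4 DMSO samples, compared with 35.4% of all genes, and 1 member, CDC25B, lay above them (21.3% of all genes). The median change was −0.54 for the members and −0.05 for all genes. Without the 5 µM sample 13 members and 72 of all genes were called lower, and against the DMSO samples of its own flow cell alone, an alternative chosen after seeing the data, 21 were.

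CENPA, the histone H3 variant that marks centromeres, was at 81.1 and 84.9 TPM in 0.2% DMSO, 77 and 77.8 TPM in 0.1% DMSO, and 30.4 and 37.3 TPM at 5 and 0.5 µM Cpd50. Both treated samples were below all controls, and the change was −1.23 (SE 0.20, adjusted p = 0.000227). MKI67, the Ki-67 protein that coats mitotic chromosomes, went from 163 to 168 TPM over the 4 DMSO samples to 69.9 and 87.8 TPM at 5 and 0.5 µM (−1.07, SE 0.19, adjusted p = 0.000464). TOP2A, the other member of that role, was at 398 and 430 TPM against 620 to 651 TPM in DMSO (−0.62, SE 0.10, adjusted p = 0.000257). Neither overlapped its controls. CDC20, the APC/C activator, was at 220 and 224 TPM, roughly level at both doses, against 425 to 448 TPM in DMSO (−0.97, SE 0.20, adjusted p = 0.00199). UBE2S, which lengthens the ubiquitin chains that UBE2C starts, fell from 334 to 386 TPM in DMSO to 197 and 198 TPM (−0.87, SE 0.13, adjusted p = 7.56e-05), and UBE2C from 1029 to 1070 TPM to 803 and 778 TPM (−0.40, SE 0.10, adjusted p = 0.0143).

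Among kinetochore genes, CENPE, a kinesin that carries chromosomes along microtubules, was at 42.3 and 47.2 TPM under Cpd50 and at 81.9 to 91.8 TPM in DMSO (−0.93, SE 0.15, adjusted p = 0.000215), and CENPF was also called lower (−0.58). Of the chromosomal passenger complex, 3 of 4 genes were called lower: CDCA8 (borealin, −0.84), INCENP (−0.74) and AURKB (−0.64). BIRC5, the 4th, changed by −0.43 with an adjusted p of 0.0725. The midzone and cytokinesis genes gave 4 of 7, namely KIF23 (−0.87), KIF14 (−0.80), ANLN (−0.68) and ECT2 (−0.60). Of 10 tested spindle motor and assembly genes 4 were called: DLGAP5 (−0.89), ASPM (−0.77), HMMR (−0.69) and TPX2 (−0.59). These are genes of spindle poles and of microtubule growth around chromosomes.

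Mitotic entry was represented by CCNB1 and CDK1. CCNB1 was at 236 and 246 TPM at 5 and 0.5 µM Cpd50 and at 383 to 395 TPM in DMSO (−0.70, SE 0.13, adjusted p = 0.000586), and CDK1 at 203 and 226 TPM against 310 to 350 TPM (−0.61, SE 0.10, adjusted p = 0.000159). BUB1 was the spindle checkpoint gene called (−0.43, adjusted p = 0.016). No gene of the 4 mitotic kinases of centrosome and spindle passed: PLK1 changed by −0.73 (adjusted p = 0.0569), AURKA by −0.67 (0.11), NEK2 by −0.42 (0.268) and PLK4 by −0.32 (0.514). PLK1 was at 135 and 129 TPM and AURKA at 118 and 118 TPM under Cpd50, below all their DMSO samples (211 to 224 and 186 to 193 TPM). The transcription factor FOXM1 changed by −0.47 (adjusted p = 0.496), with 103 TPM at both doses against 140 to 145 TPM. The members nearest to no change were KIF2C (−0.15), MAD2L1 (−0.11) and CDC25B (0.22, adjusted p = 0.75), and NDC80 (−0.83, adjusted p = 0.0807), BUB3 (−0.26, 0.731) and PRC1 (−0.43, 0.50) did not pass.

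Related lists were read beside the members. Under Cpd50, 0 of 30 genes of the G1/S transition and DNA replication were called in either direction, with a median change of 0.15. Of 13 regulators of G2/M transcription 1 was called lower (E2F4, −0.44), of 15 APC/C subunits 0, and of 12 condensin and cohesin genes 2 (NCAPG, −0.71, and SMC4, −0.58). None of the 11 tested FP-RMS identity genes was called.

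**Figure D2:**
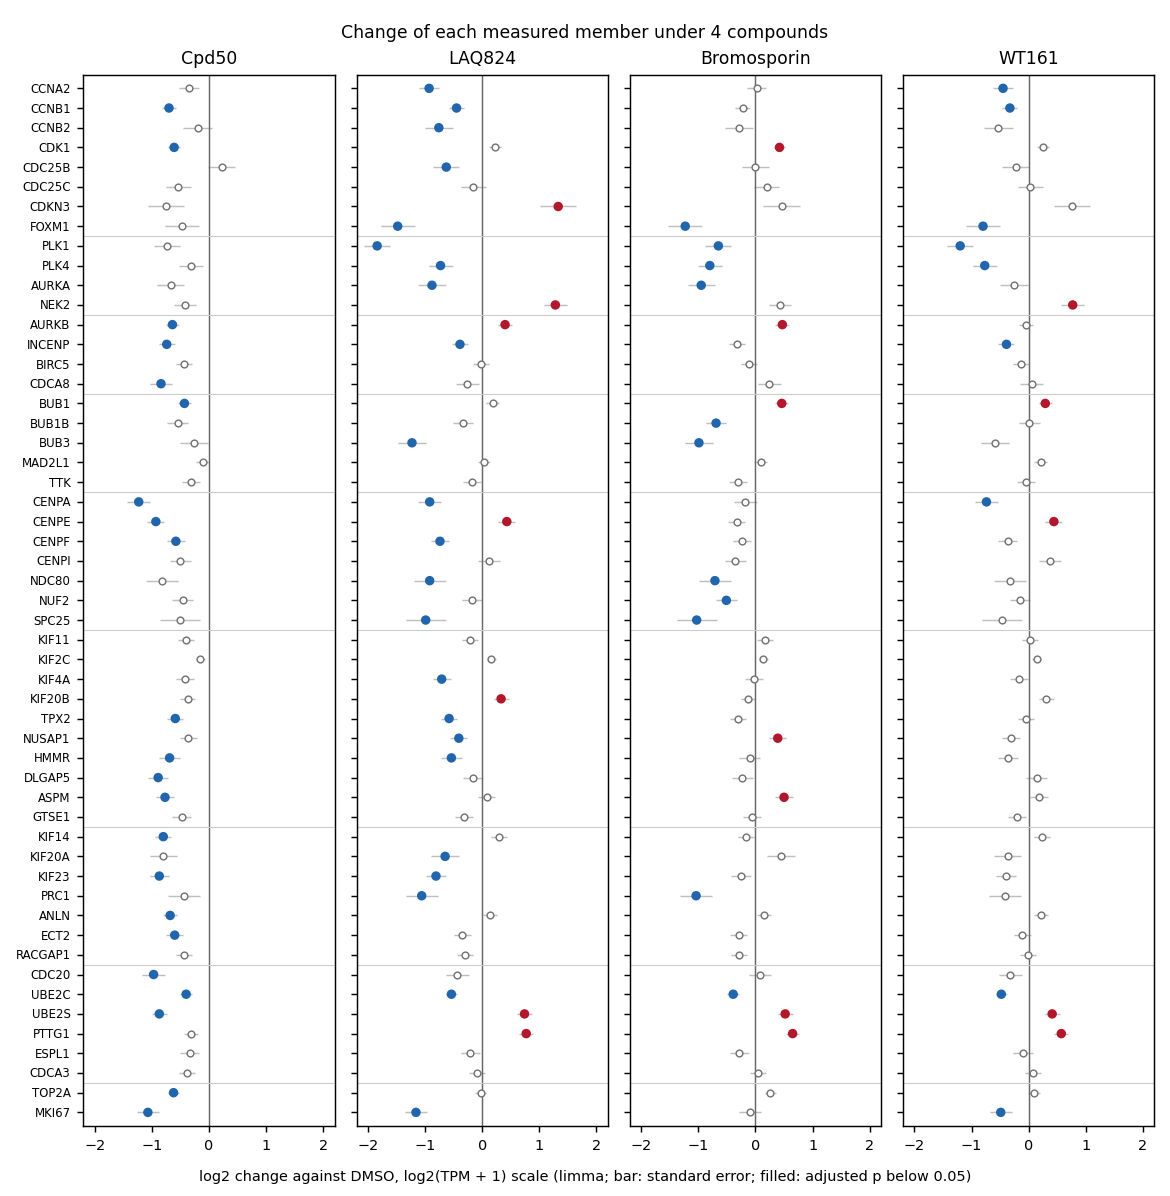
Log2 change of each of the 53 measured members under Cpd50, LAQ824, Bromosporin and WT161 against DMSO, grouped by role (grey lines), with the standard error as a bar and filled points for an adjusted p below 0.05. Under Cpd50 52 of 53 points lie left of 0, whereas the other 3 compounds have called members on both sides.

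LAQ824 split the members. With 23 members lower (43.4%, where 24.6% of all genes were called lower) and 7 higher (13.2%, where 28.4% of all genes were called higher), it moved genes of one complex in opposite directions. Its 5 and 0.5 µM samples gave nearly the same values, with 36 members below all 4 DMSO samples at both doses (38.4% of all genes) and 14 above (42.9%). PLK1 had the lowest change of all members: 57.8 and 63.2 TPM at 5 and 0.5 µM against 211 to 224 TPM in DMSO (−1.84, SE 0.23, adjusted p = 5.09e-07). FOXM1 was at 48.9 and 52.7 TPM against 140 to 145 TPM (−1.48, SE 0.30, adjusted p = 0.000203), BUB3 at 91.9 and 96.9 TPM against 216 to 228 TPM (−1.23, SE 0.25, adjusted p = 0.000225), MKI67 at 75.8 and 71.7 TPM against 163 to 168 TPM (−1.16, SE 0.19, adjusted p = 1.78e-05) and PRC1 at 101 and 101 TPM against 204 to 220 TPM (−1.06, SE 0.28, adjusted p = 0.00254). None of these overlapped its controls. CDKN3, a phosphatase that acts on cyclin-dependent kinases, was higher at 91.4 and 96.7 TPM against 35.7 to 38.6 TPM (1.33, SE 0.32, adjusted p = 0.00105), and NEK2, a centrosome kinase, at 135 and 128 TPM against 51.5 to 56.9 TPM (1.28, SE 0.20, adjusted p = 8e-06).

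The opposite directions ran through the roles. Among regulators of mitotic entry 5 of 8 were called lower (FOXM1, CCNA2 at −0.93, CCNB2 at −0.76, CDC25B at −0.63 and CCNB1 at −0.45) and CDKN3 higher, while CDK1 changed by 0.22. Of the 4 kinases, PLK1, AURKA (−0.88) and PLK4 (−0.73) were called lower and NEK2 higher. At the kinetochore CENPA (−0.92), CENPF (−0.74), NDC80 (−0.92) and SPC25 (−0.99) were lower and CENPE (0.43) higher. In the chromosomal passenger complex INCENP (−0.39) was lower and AURKB (0.40) higher, with BIRC5 at −0.02. PTTG1 encodes securin, the inhibitor of separase. It was at 340 and 344 TPM under LAQ824 and at 187 to 208 TPM in DMSO (0.77, SE 0.12, adjusted p = 6.73e-06), and UBE2S at 595 and 613 TPM against 334 to 386 TPM (0.74, SE 0.13, adjusted p = 5.74e-05), whereas UBE2C was lower at 690 and 753 TPM (−0.54, SE 0.10, adjusted p = 9.32e-05). TPX2 was called lower (−0.58), and CDC20 (−0.44, adjusted p = 0.0643) and TOP2A (−0.03) did not pass. Of the G1/S list 9 of 30 were called lower and 7 higher, and of the FP-RMS identity genes 10 of 11 were lower, among them MYOD1 (−3.12) and MYOG (−3.50), the master regulators of muscle differentiation. With median-ratio scaling the calls became 22 lower and 11 higher among members. Over all genes they went from 4032 lower and 4654 higher to 3775 and 5033.

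**Figure D3:**
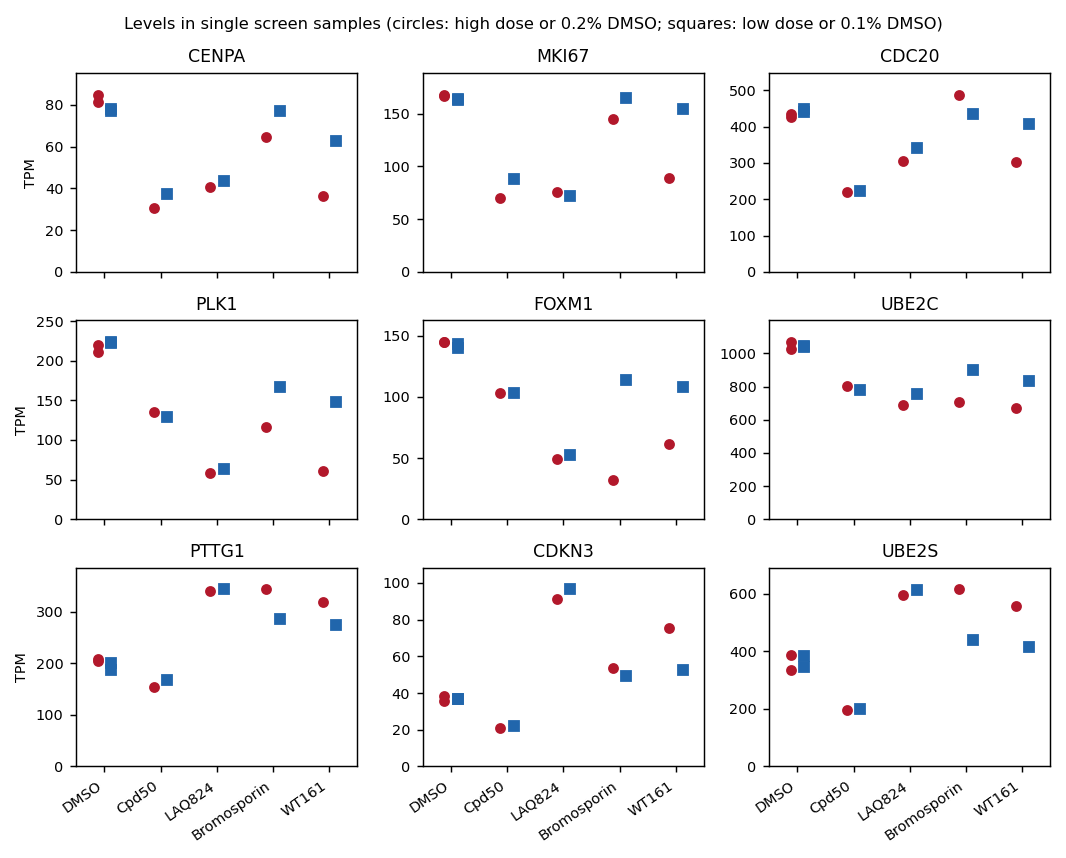
TPM of 9 members in single samples of the screen, for DMSO and 4 compounds, with circles for the high dose or 0.2% DMSO and squares for the low dose or 0.1% DMSO; the axes start at 0. CENPA, MKI67 and CDC20 have their lowest value at 5 µM Cpd50, PLK1 and FOXM1 are lower at the high than at the low dose of Bromosporin and WT161, and PTTG1, CDKN3 and UBE2S lie above DMSO under LAQ824 and below it under Cpd50.

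Under Bromosporin and WT161 mitotic genes differed from DMSO more at 10 µM than at 1 µM, as did all genes. For Bromosporin 11 members were called lower (20.8%) and 7 higher (13.2%), shares close to those of all genes (23.4% and 12.4%). For WT161, 9 were lower (17%) and 5 higher (9.43%), beside 14.3% and 17.7% of all genes. The share of members called lower was near the background for both compounds, and the share of members called higher under WT161 was below it. Past 2-fold below DMSO were 8 members at 10 µM Bromosporin and 5 at 10 µM WT161, where 18.3% and 9.43% of all genes were, and 0 at 1 µM of either, where 4.53% and 3.88% of all genes were. Without the 10 µM sample 0 members were called lower and 1 higher for Bromosporin, and 1 and 2 for WT161. The calls over all genes then went from 3835 lower and 2029 higher to 769 and 318 for Bromosporin, and from 2336 and 2896 to 867 and 1183 for WT161. In a fit restricted to 1 compound and DMSO neither compound had any member, or any other gene, called.

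FOXM1 was at 32 TPM at 10 µM and 114 TPM at 1 µM Bromosporin, against 140 to 145 TPM in DMSO (−1.23, SE 0.30, adjusted p = 0.00282). BUB3 was at 68.2 and 182 TPM at the same doses, against 216 to 228 TPM (−0.99, SE 0.25, adjusted p = 0.00375). PRC1 (57.1 and 183 TPM, −1.04), SPC25 (23.7 and 50.7 TPM, −1.03) and AURKA (66.1 and 141 TPM, −0.95) were also called lower. In each of these 5 genes the 10 µM sample was the lower of the pair, and both samples lay below DMSO. Of the genes called higher, PTTG1 was at 344 and 286 TPM (0.65), UBE2S at 616 and 438 TPM (0.52), ASPM, a spindle pole protein, at 90.6 and 87.5 TPM (0.50) and CDK1 at 482 and 401 TPM (0.42, adjusted p = 0.00198). PLK1 (−0.65), PLK4 (−0.80), NDC80 (−0.71) and UBE2C (−0.39) were lower too, while CCNB1 (−0.22), TPX2 (−0.31), BIRC5 (−0.11), CDC20 (0.08), TOP2A (0.26) and MKI67 (−0.10) did not pass. With median-ratio scaling 9 members were called lower and 10 higher. Over all genes the calls went from 3835 lower and 2029 higher to 3302 and 2605.

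Under WT161, PLK1 was at 60.8 TPM at 10 µM and 148 TPM at 1 µM against 211 to 224 TPM (−1.20, SE 0.23, adjusted p = 0.000325). FOXM1 was at 61.4 and 108 TPM (−0.80, adjusted p = 0.0409), PLK4, the kinase that starts centriole duplication, at 26 and 32.2 TPM against 48.9 to 51.2 TPM (−0.77, adjusted p = 0.0068), and CENPA at 36.3 and 62.7 TPM (−0.74, adjusted p = 0.00755). All these samples lay below DMSO. BUB3 was at 110 and 196 TPM and did not pass (−0.59). NEK2 was higher at 105 and 80.9 TPM against 51.5 to 56.9 TPM (0.77, adjusted p = 0.00394), as was PTTG1 at 319 and 275 TPM (0.57, adjusted p = 0.000695). CDKN3 was at 75.5 and 52.6 TPM (0.76) and did not pass the test. CCNB1 (−0.33), UBE2C (−0.48) and MKI67 (−0.49) were called lower, and AURKA (−0.26), CDC20 (−0.32), TPX2 (−0.05), BIRC5 (−0.13), NDC80 (−0.32), PRC1 (−0.42), CDK1 (0.25) and TOP2A (0.09) were not. With median-ratio scaling 12 members were lower and 3 higher. Over all genes the calls went from 2336 lower and 2896 higher to 2640 and 2659.

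Smaller sets were called under 3 further compounds. Under UNC0638 6 members were called lower (11.3%, where 9.76% of all genes were). CDC25C, a phosphatase that activates CDK1, was called higher (1.89% of members, where 2.37% of all genes were). Both shares were near those of all genes. CDC20 was at 182 TPM at 10 µM and 373 TPM at 1 µM UNC0638 against 425 to 448 TPM in DMSO (−0.74, adjusted p = 0.0182), and CDC25B at 91.7 and 254 TPM against 261 to 277 TPM (−0.81, adjusted p = 0.0231), so again the 10 µM sample carried most of the change. CDC25C was at 97.4 and 47.1 TPM against 40.5 to 41.6 TPM (0.71, adjusted p = 0.0354). Without the 10 µM sample none of the members was called for UNC0638, and the calls over all genes went from 1596 lower and 388 higher to 21 and 27. Under MC1568 UBE2C was lower (−0.49) and ESPL1, the protease separase, and ASPM were higher (0.54 and 0.48). These were 1.89% and 3.77% of members, while 2.92% of all genes were lower and 19.6% higher. Under GSKLSD1 CENPE (0.57) and KIF20B (0.48), both kinesins, were higher. They were 3.77% of members, with 0.703% of all genes lower and 2.81% higher. The flow cell of GSKLSD1 held no DMSO.

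No member was called by limma under the other 13 compounds, where between 0 and 8 of 53 members had an unadjusted p below 0.05. Among all 16359 genes 307 (PFI-3) to 2764 (SGC-CBP30) did under these compounds. The share of all genes called in either direction was small for most of them: 0.0734% for EZ-005, 0.0122% for GSKJ4, 0.116% for Merck60, 0.171% for OJI-1, 0.0428% for PFI-3, 0.183% for SGC0946, 0.0489% for UNC-1215 and 0.0672% for UNC1999. It was 0.587% for LSD-519, 1.41% for LSD-690, 0.465% for PFI-2, 2.7% for Trametinib and 3.41% for SGC-CBP30. For SGC-CBP30, the compound with 8 such members, the smallest adjusted p was 0.0687 (CDC25B, −0.74).

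The acetylation and methylation axes were compared with compounds as units. The set means of the 7 acetylation-axis compounds averaged −0.07 ± 0.13 (SD) and those of the 11 methylation-axis compounds −0.02 ± 0.21, and the ranges overlapped (−0.30 to 0.11 and −0.56 to 0.17). In limma 0 members and 0% of all genes differed at an adjusted p below 0.05. Of all 16359 genes 5018 had an unadjusted p below 0.05, and 12 of 53 members did. Those with the smallest adjusted p were FOXM1 (acetylation minus methylation −0.53, SE 0.17, adjusted p = 0.0687), BUB3 (−0.46, 0.0688) and PLK4 (−0.43, 0.0694). At the high dose alone BUB3 passed (−0.67, SE 0.19, adjusted p = 0.041). How many of all genes passed in that fit is not given here, so this call cannot be read against the background.

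N1302 at 6 h left most mitotic genes lower than in its DMSO sample. There is 1 sample on each side and no replicate check, so intervals cover counting error only, for the ratio of the TPM values. Of 53 members 26 were past 2-fold lower, where 19.3% of all genes were, and 3 were past 2-fold higher, where 11.6% were. The set mean was −0.77 and the median −0.93, with 46 members below DMSO, and the median over all genes was −0.11. With median-ratio scaling the all-gene median was 0.03 and the set mean −0.45, and 17 members were past 2-fold lower and 4 higher, where 13.5% and 17% of all genes were.

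PLK4 was at 9.08 TPM under N1302 and 42.3 TPM in its DMSO (−2.1, 95% interval −2.42 to −2.03), on 247 and 1644 reads. CENPF, a kinetochore protein, was at 23.3 against 89 TPM (−1.89), ECT2, the exchange factor that starts the cleavage furrow, at 42.3 against 141 TPM (−1.71), NDC80 at 62 against 197 TPM (−1.65) and ASPM at 11 against 36.5 TPM (−1.64). By role, 5 of 7 kinetochore genes, 5 of 7 midzone genes and 3 of 4 centrosome kinases were past 2-fold lower. The genes of anaphase onset and mitotic exit stood otherwise, with 0 of 6 lower and 2 higher. UBE2S was at 993 TPM under N1302 and 220 TPM in DMSO (2.17, 95% interval 2.11 to 2.24), and PTTG1 at 549 against 256 TPM (1.10, 95% interval 1.03 to 1.17). CDKN3 was at 235 against 83.1 TPM (1.49, 95% interval 1.37 to 1.63). CDC20 (350 against 399 TPM), CDK1 (318 against 358 TPM) and BIRC5 (250 against 281 TPM) were within 2-fold, as were UBE2C (878 against 696 TPM) and CCNB1 (252 against 380 TPM). FOXM1 was at 30.9 against 74.7 TPM, PLK1 at 34.7 against 93.5 TPM, AURKA at 97.5 against 224 TPM, MKI67 at 22 against 60.7 TPM and TOP2A at 232 against 615 TPM, all past 2-fold lower. BUB3 (98.6 against 233 TPM) and PRC1 (66.9 against 177 TPM) were also past it, and TPX2 (218 against 380 TPM) was not.

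**Figure D4:**
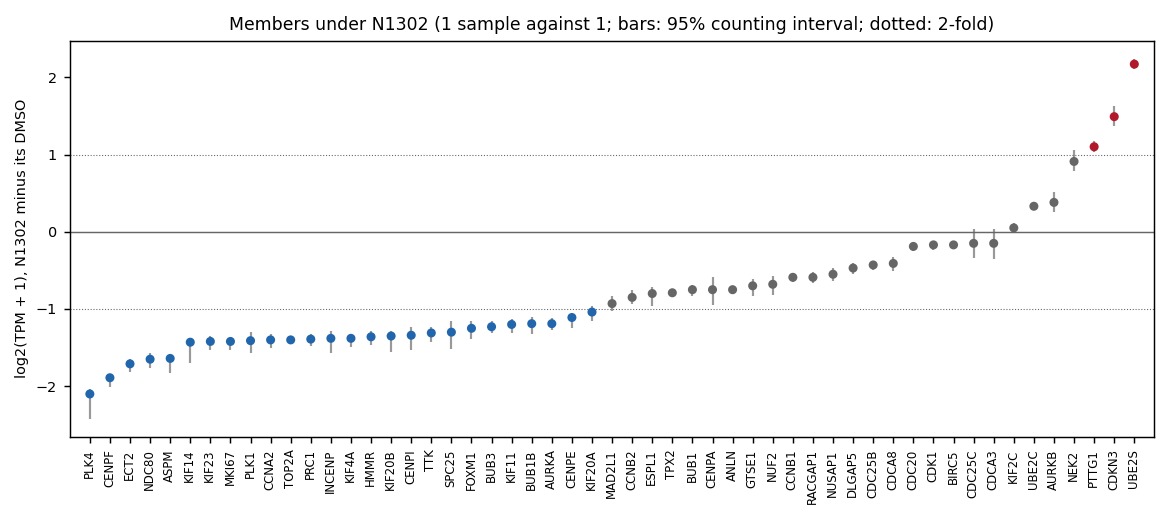
Log2(TPM + 1) of the N1302 sample minus its DMSO sample for each of 53 members, ordered, with the 95% counting interval of the TPM ratio as a bar and dotted lines at 2-fold. Blue points (26) lie past 2-fold lower and red points (3: PTTG1, CDKN3 and UBE2S) past 2-fold higher.

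The DMSO samples of the RH4-titled experiments bear on these values. The DMSO sample for N1302 and that of the 6 h entinostat time point carry the same solvent and time labels, yet individual members differed between them from −1.31 (MKI67, 60.7 against 152 TPM) to 0.95 (HMMR), with 2 members more than 2-fold lower in the former. The mean difference over the members was −0.01. With the mean of both DMSO samples as the reference, 24 members were past 2-fold lower under N1302 and 3 higher. Shares of all genes under this reference are not given here. Within the time course the members in DMSO rose by a mean of 0.11 from 1 to 24 h, none past 2-fold.

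Entinostat changed the members gradually. At 1 h they were at the level of DMSO, with differences from −0.20 (CENPA) to 0.13 (CENPE) and a mean of −0.01, and 0 members were past 2-fold in either direction (0.581% of all genes lower, 0.66% higher). At 6 h the mean was −0.17, 39 members were below DMSO and 0 were past 2-fold (0.947% and 5.13% of all genes). With median-ratio scaling the 6 h mean was −0.05, with an all-gene median of 0.12. By 24 h the mean was −0.27 and the median −0.37, 5 members were past 2-fold lower, where 6.06% of all genes were, and 2 were past 2-fold higher, where 16.4% were. The median over all genes was 0.10 at 24 h. With median-ratio scaling the 24 h mean was −0.18, with 3 members past 2-fold lower and 2 higher, where 5.07% and 18.3% of all genes were. The all-gene median was then 0.17. From 1 to 6 to 24 h, 26 members went steadily down relative to DMSO and 9 steadily up, and 34 were below DMSO at both 6 and 24 h while 10 were above at both. These patterns were counted for the members only, so no share of all genes stands beside them.

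The members lowest at 24 h were FOXM1 (36.4 against 109 TPM, −1.55, 95% interval −1.66 to −1.49), CCNA2 (cyclin A2, 49.5 against 125 TPM, −1.32), ESPL1 (25.9 against 56.2 TPM, −1.09), CDCA3 (21.7 against 46.9 TPM, −1.08) and PLK1 (77.5 against 158 TPM, −1.01). At 6 h FOXM1 had been at −0.32 and ESPL1 at 0.03, whereas CCNA2, CDCA3 and PLK1 were already at −0.68, −0.72 and −0.60. CDCA8, KIF20A and AURKA lay at −0.68, −0.67 and −0.62 at 6 h, and CENPE was among the highest at that time (123 against 101 TPM, 0.28). In the opposite direction CDK1 went from 243 TPM in DMSO to 354 TPM at 6 h (0.54) and from 245 to 451 TPM at 24 h (0.88), although CCNB1, its partner, was at 280 against 343 TPM and then 198 against 336 TPM (−0.76). ANLN, the furrow protein anillin, was at 207 against 173 TPM at 6 h (0.25) and 390 against 183 TPM at 24 h (1.09), and CDKN3 at 74.7 against 58.8 TPM (0.34) and 133 against 62.2 TPM (1.09). Among the most abundant members of each role at 24 h, BIRC5 was at 187 against 257 TPM, BUB3 at 141 against 215 TPM, NDC80 at 105 against 163 TPM, TPX2 at 345 against 354 TPM, PRC1 at 138 against 171 TPM, UBE2C at 882 against 1007 TPM and TOP2A at 645 against 532 TPM. MKI67 (108 against 167 TPM), AURKA (95 against 190 TPM) and CDC20 (289 against 434 TPM) were below DMSO and within 2-fold. At 1 h AURKA (156 against 171 TPM), CDCA8 (116 against 128 TPM), CDCA3 (37 against 40.6 TPM) and UBE2C (973 against 1045 TPM) were the lowest after CENPA (42.8 against 49.4 TPM), and NUF2 (104 against 95.7 TPM) and CENPI (40.3 against 37.4 TPM) the highest after CENPE.

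**Figure D5:**
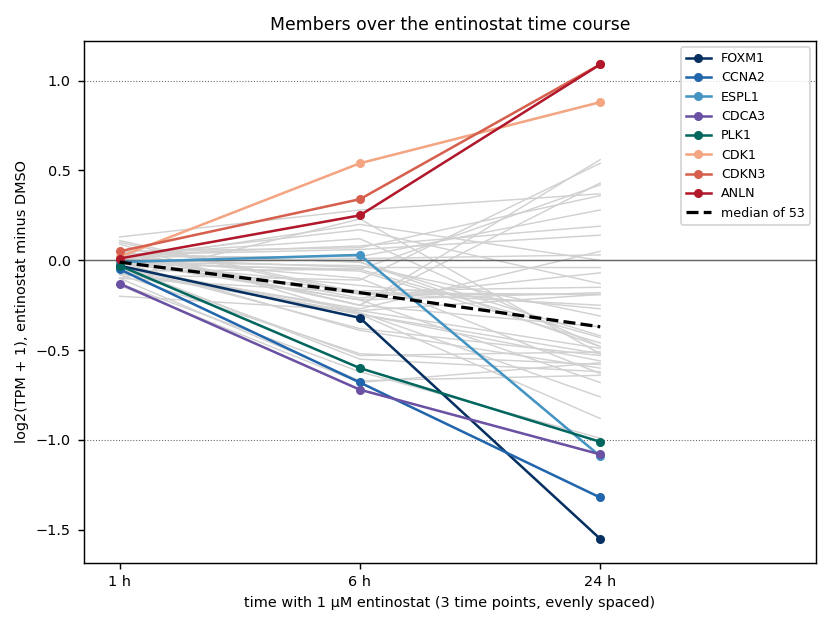
Log2(TPM + 1) of entinostat minus DMSO of the same time for 53 members (grey lines) at 1, 6 and 24 h, drawn at even spacing, with 8 members in colour and the median dashed. All members start within 0.20 of DMSO at 1 h, FOXM1 reaches −1.55 and ANLN and CDKN3 1.09 at 24 h.

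Genes of G1/S and replication moved further than the mitotic members at 24 h of entinostat. Of 30 such genes 20 were past 2-fold lower with a median of −1.23, for example MCM5 (−2.39) and E2F1 (−2.06), while at 6 h 0 were and the median was −0.11. Of 13 regulators of G2/M transcription 2 were past 2-fold lower at 24 h, MYBL2 at −1.51 and LIN52 at −1.0, and of 15 APC/C subunits and 12 condensin and cohesin genes 0. Of 11 tested FP-RMS identity genes 7 were past 2-fold lower at 24 h. The difference between the lists was not tested.

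Experiments with separate DMSO samples could be set side by side. Of the 23 members called lower under LAQ824, 22 were below DMSO under N1302 and 22 at 24 h of entinostat, where 93.3% and 74.7% of all 4032 genes called lower were. Past 2-fold lower were 16 of the 23 under N1302 and 3 at 24 h of entinostat, against 54.4% and 16.2% of those genes. Of the 7 members called higher under LAQ824, 5 were above DMSO under N1302 and 6 at 24 h of entinostat (79.7% and 78.2% of 4654 genes). Of the 22 members called lower under Cpd50, 19 were below DMSO under N1302 and 14 at 24 h of entinostat (59.3% and 53.9% of 371 genes). Of all 53 members, called or not, 46 were below DMSO under N1302 and 38 at 24 h of entinostat, with 7 and 15 above it. UBE2S illustrates the difference in direction. It was called lower under Cpd50 (−0.87) and higher under LAQ824 (0.74), and it lay above DMSO under N1302 (2.17) and at 24 h of entinostat (0.54). Of the tested members with an entry in the promoter table, 33 held TTTGAA or TTCGAA in the 300-base window and 12 did not. FOXM1, AURKA and BUB3 were among the members without an entry and are left out. The difference between members with and without a match was not tested, and no such split of all genes is given here. The median with and without a match was −1.20 and −0.29 under N1302, −0.34 and 0.14 under LAQ824, −0.37 and −0.31 at 24 h of entinostat, −0.13 and 0.17 under Bromosporin, −0.15 and 0.08 under WT161 and −0.60 and −0.52 under Cpd50.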

How the data were processed

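RNA was measured by poly-A RNA-seq in 52 samples. The authors extracted total RNA, aligned paired reads to hg19 with STAR and computed TPM with RSEM; the submitters' processing notes also name edgeR. The deposited TPM values are scaled per gene length and library, so count tests were not used. TPM values were whole multiples of a step per gene in 23645 of 23645 genes (100%, tolerance 0.01 read). This gave reads per gene and sample, used for depth, for the counting intervals and for the counting noise of the DMSO samples. How this form of the TPM values arose is not given in the sources used here, and intervals cover counting error only.

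Samples were grouped by the labels. The 16359 genes that reached 1 TPM in at least 2 samples were analysed as log2(TPM + 1), a scale that understates changes of low genes. limma 3.58.1 in R 4.3.3, with the eBayes trend option and Benjamini-Hochberg adjustment over all genes, was fitted on the 40 treated screen samples and DMSO, with same-concentration DMSO samples averaged and counted once. Over the 4 DMSO samples the mean variance was 4.08 times counting noise between replicate numbers, which go with flow cells, 3.55 times between concentrations and 1.02 times for their interaction. Both doses of a compound served as its replicates, and a call was an adjusted p below 0.05. Axes were compared on compound means. With 1 sample per group no p was computed, and 2-fold marked a difference. Intervals at 95% are exact (Clopper-Pearson) for the reads of both samples. On simulated data with 200 genes changed 2-fold, the fit of 1 compound called 146 with 6 false calls among 16359 genes, that of the axes 198 with 15, and that of the DMSO concentrations 0 with 0. Python 3.11.15 with numpy 2.4.6, pandas 2.3.3, scipy 1.17.1 and matplotlib 3.10.9 did the rest.

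The members and lists were chosen with earlier results of these data known. Named genes follow a rule: for compounds with 10 or more members called, N1302 and entinostat, the 5 lowest and 3 highest members and the most abundant member of each role, and 8 further genes (CDK1, CCNB1, PLK1, AURKA, CDC20, FOXM1, MKI67 and TOP2A). Other genes were named after their values were seen. Alternatives were a pseudocount of 0.1, median-ratio scaling over 6316 genes, other filters, other DMSO references, single doses and a 1.5-fold limit. Deviations of same-numbered DMSO samples had a correlation of 0.0719.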

Additional observations from a re-analysis of the deposited data

How the results depend on the processing

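For Cpd50, 19 to 25 members were called lower and 0 higher under a pseudocount of 0.1, median-ratio scaling, both other filters on low values and the DMSO samples of its own flow cell (the last chosen after seeing the data). With all 4 DMSO samples kept separate 37 were lower, with only its own samples and DMSO 50, while calls lower over all genes went from 371 to 938 and 3037, and with a log2 change of at least 1 required 2. For LAQ824 the own-sample fit gave 35 lower and 12 higher, median-ratio scaling 11 higher, and the limit on size 5 lower and 2 higher. For Bromosporin the own-sample fit gave 0 and 0 and the limit on size 3 lower and 0 higher. For WT161 the same alternatives gave 0 and 0, and 1 lower and 0 higher. For WT161 no filter gave 4 lower, all 4 DMSO samples 14 lower and 8 higher, the other compounds of its flow cell as the reference 15 lower, and median-ratio scaling 3 higher. Leaving out a dose or a DMSO concentration gave 0 to 24 members lower and 1 to 8 higher for Bromosporin, 13 to 18 lower for Cpd50 (0 higher), 16 to 18 lower and 4 to 5 higher for LAQ824, and 1 to 19 lower and 2 to 4 higher for WT161. The low count for Bromosporin, WT161 and UNC0638 came without the 10 µM sample (0, 1 and 0 lower) and the high one without the 1 µM sample (24, 19 and 26 lower). Without 0.1% DMSO and without 0.2% DMSO, Bromosporin gave 7 and 7 lower, and WT161 4 and 3 lower and 2 and 2 higher. In the axis comparison the high dose alone gave 1 member lower. For the fits without a 1 µM sample or without a DMSO concentration, calls over all genes are not given here.

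Median-ratio scaling moved the all-gene median by 0.14 for N1302, 0.10 for entinostat at 6 h and 0.08 for Cpd50. It changed set means to −0.43 for Cpd50, −0.23 for LAQ824, −0.45 for N1302, −0.05 and −0.18 for entinostat at 6 and 24 h, and 2-fold counts to 17 lower for N1302 and 3 lower for entinostat at 24 h. Past 2-fold lower under the same scaling were 13.5% of all genes for N1302 and 5.07% for entinostat at 24 h. Of calls in each direction it moved the share that was lower from 61.1% to 47.4% for Bromosporin, from 76.7% to 66.7% for LAQ824 and from 64.3% to 80% for WT161. A pseudocount of 0.1 gave a set mean of −0.79 for N1302. At a 1.5-fold limit 6 members were lower at 6 h and 13 at 24 h of entinostat. Shares of all genes at that limit are not given here. The causes of these shifts were not tested. Over the 4 compounds and 53 members, 2155 of 2544 alternative values kept direction and side of the threshold, 248 lost a call, 141 gained one, and none with a call changed sign. With the replicate number of the DMSO samples, which goes with the flow cell, as a replicate block, 0 members were called between DMSO concentrations. This says nothing about stability, since on simulated data that fit without the block called 0 of 200 changed genes. With 1 sample per group, N1302 and entinostat values have no replicate error.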
